A study of Bos taurus with 6 samples.

Results

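GAPDH and ACTB, a pair of genes that are widely used as internal references for RNA measurements, were described in sperm RNA of monozygotic twin bulls. They were the rows ENSBTAG00000014731 (GAPDH) and ENSBTAG00000026199 (ACTB), taken by identifier, and made up 2 of the 21070 genes in the deposited table. The twins were Holstein bulls named Bull1 and Bull2, genetically identical, of which Bull1 had the better sperm motility. Sperm was washed over Percoll to remove somatic cells, and RNA was extracted in 3 replicates per bull and preamplified from poly(A) tails by the Smart-seq2 method before sequencing. Each bull is 1 animal, neither bull received a treatment that the labels name, and the age at collection of the semen for RNA is not given in the sources used here. The replicates measure the spread between libraries of 1 animal, which may be technical, and a difference between the groups is a difference between 2 animals.

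GAPDH encodes glyceraldehyde-3-phosphate dehydrogenase, an enzyme of glycolysis, and ACTB encodes beta-actin, a subunit of the actin filaments of the cytoskeleton. Both are called housekeeping genes because most somatic cells need them, and a reference gene is useful when its level is the same in every sample compared. Ripe sperm are transcriptionally silent and have shed most of their cytoplasm, and the little RNA they carry is left from spermatogenesis. Their glycolysis relies on a sperm-specific form of the enzyme, encoded by the separate gene GAPDHS.

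The study used GAPDH as the reference in its quantitative PCR of HSPA1L, a heat shock protein gene of the male germ line. The primers of both assays are shown because the ratios given further on are the sequencing counterpart of that measurement. They are written 5′ to 3′ and carry no capitals, since no base was singled out.
GAPDH forward: aatggaaaggccatcaccatc
GAPDH reverse: gtggttcacgcccatcaca
HSPA1L forward: tcaaactggatcgaaggcgg
HSPA1L reverse: tcgatgccgatagctgttcc
The GAPDH primers were 21 and 19 nt long with 10 and 11 G or C bases, and both HSPA1L primers were 20 nt long with 11.

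The libraries were shallow. The values are FPKM, the fragments of a gene scaled by its length and by the mapped reads of the library. Low values fall on steps of single reads, from which totals of 486638 to 681933 reads per library were recovered, and reads of a gene are known up to a factor that they share with its length. Between 12286 and 17053 genes were above 0 in a library. The recovered length was 1056 bp for GAPDH and 1829 bp for ACTB, so that 1 read was worth 1.39 to 1.95 FPKM of GAPDH and 0.80 to 1.12 FPKM of ACTB. Over genes, the mean Pearson's r of log2(FPKM + 1) of a library with the other 5 was from 0.448 to 0.518.

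GAPDH was detected in all 6 libraries, but at levels that differed by 11.04-fold. In Bull1 it was at 110.1, 9.97 and 51.4 FPKM in replicates 1, 2 and 3, from 74, 6 and 37 reads. In Bull2 it was at 32.5, 32.5 and 54.5 FPKM, from 22, 20 and 28 reads. The highest and the lowest library were thus both of Bull1, and the 3 libraries of Bull2 lay between them. Exact Poisson intervals of 95%, which cover counting error only, were 86.4 to 138.2 FPKM for replicate 1 of Bull1 and 3.66 to 21.7 FPKM for its replicate 2. The former lay above the intervals of all other libraries. The latter overlapped only with replicates 1 and 2 of Bull2, whose intervals began at 20.4 and 19.9 FPKM.

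ACTB was detected with over 50 reads in 2 libraries of Bull1 and with 8 or fewer in every other library. The replicates of Bull1, in the same order, held 43.8, 7.68 and 44.1 FPKM, from 51, 8 and 55 reads. In Bull2 it was at 2.56, 1.88 and 0 FPKM, from 3, 2 and 0 reads. The 0 in replicate 3 of Bull2 allows up to 3 reads, or 3.37 FPKM, as a limit on 1 side, and the interval on both sides that is plotted for all libraries reaches 4.14 FPKM. All libraries of Bull1 were above all those of Bull2, and replicate 2 of Bull1, the lowest library for GAPDH, was also the lowest Bull1 library for ACTB.

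**Figure D1:**
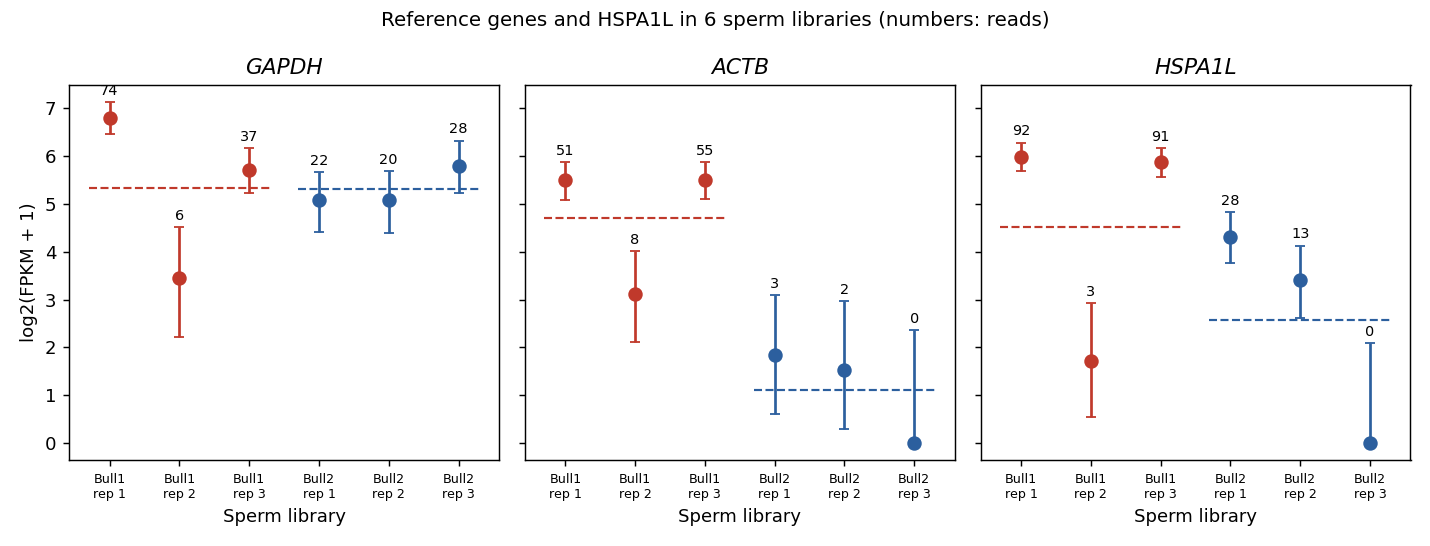
The 3 panels show log2(FPKM + 1) of GAPDH, ACTB and HSPA1L in each sperm library of Bull1 (red) and Bull2 (blue), with points for libraries, bars for the exact Poisson interval of 95%, dashed lines for the mean of a bull and the number of reads above each bar. GAPDH ranged from 6 to 74 reads with bull means of 5.32 and 5.31, whereas ACTB had 8 to 55 reads in Bull1 and 0 to 3 in Bull2.

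Neither gene was among the most abundant transcripts. Ranked by the mean FPKM of the 6 libraries, GAPDH was at place 3660 of 21070, above 82.6% of the genes and in the highest of 5 equal classes of 4214 genes, with 48.5 ± 34.1 FPKM (SD, n = 6 libraries). ACTB was at place 9068, above 56.96% of the genes and in the middle class, with 16.7 ± 21.3 FPKM (SD, n = 6). Within single libraries GAPDH moved between place 1236 in replicate 1 of Bull1 and place 9847 in replicate 2 of Bull1. ACTB moved from place 3917 in replicate 3 of Bull1 to place 15697 in replicate 2 of Bull2, and shared the tie at 0 in replicate 3 of Bull2. By bull, GAPDH was at place 2931 in Bull1 and 4572 in Bull2, and ACTB at place 5552 and 17632. Leaving out replicate 1 of Bull1 or another single library kept GAPDH between places 3030 and 5004 and ACTB between 8109 and 11002.

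Absence from a library was common in these data. Of all genes, 7584 were above 0 in all 6 libraries, GAPDH among them, and 3068 were at 0 in exactly 1 library, as was ACTB. In the highest class, that of GAPDH, 75.2% of the genes were above 0 in every library.

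Over the 6 libraries of both bulls together, the spread of both genes exceeded counting error. The coefficient of variation (CV) of GAPDH over the 6 libraries was 70.4%, where counting error for 187 reads gives 18.0%. For ACTB it was 128%, where 119 reads give 22.6%. These CVs include any difference between the bulls. Within Bull1 the CV of GAPDH was 88.0% and within Bull2 it was 31.8% (n = 3 libraries each). Within Bull1 the CV of ACTB was 65.7%, and within Bull2, at 0 to 3 reads, it was 89.6%. Counting error was not computed within a bull. The spread within Bull2, at 20 to 28 reads of GAPDH, is thus not shown to exceed it for either gene. Amplified reads are not independent molecules, so counting error of reads is a lower limit of the error of sampling RNA.

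Compared with genes of their own class, both references had a larger CV than the median gene. The classes were formed by mean FPKM, so genes of a class differ in length and in reads, and thus in counting error. The median CV was 52.0% in the class of GAPDH, and 67.7% of its genes had a smaller CV than GAPDH. The median was 103% in the class of ACTB, and 67.1% of its genes had a smaller CV than ACTB. Of the 3659 genes with a higher mean than GAPDH, 2428 were above 0 in all libraries and had a smaller CV. Of the 9067 with a higher mean than ACTB, 6022 did. Without replicate 2 of Bull1, the library in which GAPDH was lowest, the CV of GAPDH was 56.6% and 1746 genes were as abundant and more even. Without replicate 1 of Bull1 the CV was 49.4%, with 2293 such genes.

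**Figure D2:**
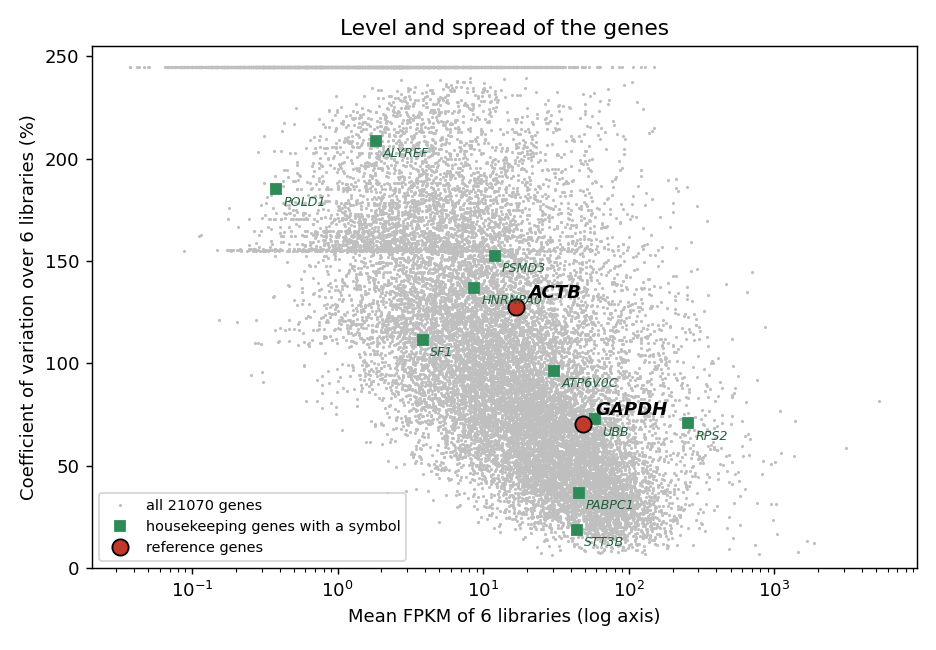
Each grey point is a gene, with its mean FPKM over the 6 libraries on a log axis and its coefficient of variation in percent over the same libraries, and red circles and green squares mark the reference genes and 10 housekeeping genes with a known symbol. GAPDH (48.5 FPKM, 70.4%) and ACTB (16.7 FPKM, 128%) lie above STT3B and PABPC1, which have a mean near that of GAPDH and a CV of 18.8% and 36.9%. These are the only 2 of the 10 housekeeping genes with a smaller CV than GAPDH.

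Whether the references differed between the twins was tested with limma, a linear model over all genes, on log2(FPKM + 1) of the 19339 genes with a mean of at least 1 FPKM. At an adjusted p-value under 0.05, 0% of these genes were called (0 genes with limma, 1017 at an unadjusted p-value under 0.05, and 7 with voom on recovered reads). The mean of GAPDH was 57.1 ± 50.3 FPKM for Bull1 and 39.8 ± 12.7 FPKM for Bull2 (SD, 3 libraries per bull). On the log2(FPKM + 1) scale the bull means were 5.32 and 5.31. The log2FC, here the mean of Bull1 less that of Bull2 on this scale, was 0.01 (SE 0.86, limma adjusted p = 0.999). The interval of 95% for this difference ran from -1.93 to 1.95, so a missed threshold here does not show equal levels. Its sign depended on single libraries, with a log2FC of -0.73 without replicate 1 of Bull1 and 0.94 without replicate 2 of Bull1.

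The mean of ACTB was 31.9 ± 20.9 FPKM for Bull1 and 1.48 ± 1.33 FPKM for Bull2 (SD, 3 libraries per bull), a ratio of the means of 21.5. Its log2FC was 3.58 with a standard error of 1.26 and an interval of 95% from 0.74 to 6.42. The limma p-value was 0.0191 unadjusted and 0.825 adjusted over all genes tested, so the difference did not pass the correction. An unadjusted p-value under 0.05 with a higher level in Bull1 was found for 1.71% of the genes tested, and 3.3% had all libraries of Bull1 above all those of Bull2, as ACTB did. The exact permutation test of 3 libraries against 3 gave p = 0.1, the smallest value that this design allows (two-sided). The log2FC of ACTB stayed between 3.02 and 4.94 under all alternatives tried. Its interval of 95% included 0 without replicate 1 of Bull1 (-0.40 to 6.78) and without replicate 3 of Bull1 (-0.29 to 6.66). Fewer cells with a transcript and less of it in each cell cannot be told apart in bulk RNA.

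Reads of ACTB and GAPDH may be shared with near-identical copies, namely other actin genes and processed pseudogenes of GAPDH. How the counting divided such reads is not given in the sources used here, and the values of both genes are uncertain to that extent.

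Other housekeeping genes were compared where the study's list of genes with methylation differences between these bulls pairs an identifier with a symbol, so they were not chosen independently of these animals. All 10 were in the table and 9 were tested, of which 0 had an adjusted p-value under 0.05. RPS2, a ribosomal protein gene, was the highest at 255.2 FPKM and POLD1, the catalytic subunit of DNA polymerase delta, the lowest at 0.38 FPKM. Only 4 of the 10 were above 0 in all 6 libraries, 2 had a smaller CV than GAPDH, and 6 had a smaller CV than ACTB. The more even of these were STT3B, a subunit of the oligosaccharyltransferase of the endoplasmic reticulum, and PABPC1, the cytoplasmic poly(A)-binding protein, which were singled out after their values were seen.

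STT3B was at 37.5, 49.2 and 49.5 FPKM in the libraries of Bull1 and at 53.9, 31.9 and 42.9 FPKM in those of Bull2. PABPC1 was at 41.9, 46.2 and 40.1 FPKM in Bull1 and at 76.7, 38.6 and 27.4 FPKM in Bull2. The bulls overlapped for both genes, and their means of 44.2 and 45.2 FPKM were near the 48.5 FPKM of GAPDH. STT3B and PABPC1 had 421 and 471 reads over the libraries, beside 187 of GAPDH, so their counting error was smaller. UBB, which encodes ubiquitin, was at 112.6, 41.4 and 111.5 FPKM in Bull1 and at 24.6, 15.0 and 48.5 FPKM in Bull2, with the low value of Bull1 again in replicate 2. RPS2 was at 362.6, 227.8 and 550.7 FPKM in Bull1 and at 227.5, 51.2 and 111.5 FPKM in Bull2, likewise lowest of Bull1 in replicate 2. The bulls overlapped for UBB, and for RPS2 all libraries of Bull1 were above those of Bull2 by the margin of 227.8 to 227.5 FPKM. The log2FC of the last 2 genes were 1.58 and 1.70 (limma adjusted p = 0.825 for both), and over the 9 genes tested the median log2FC was 1.58, beside -0.29 for all genes tested. After quantile normalization the median of all genes was -0.03.

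Among genes of the actin cytoskeleton, the median difference was near that of all genes. From the same source 12 were listed, 11 were present and 9 were tested, with 0 adjusted p-values under 0.05, a median log2FC of -0.27, beside -0.29 for all genes, and 4 of 9 above 0. FMNL2, a formin that elongates actin filaments, had the highest mean with 55.4 FPKM and a CV of 24.1%. PPP1R18, an actin-binding subunit of protein phosphatase 1, had the lowest with 0.41 FPKM. TESK1, a kinase of cofilin with high expression in testis, was at 5.54, 9.63 and 31.0 FPKM in Bull1 and at 0 in every library of Bull2. ACTN1, an alpha-actinin that crosslinks actin filaments, had the opposite pattern, at 0 in every library of Bull1 and at 2.21, 5.34 and 2.32 FPKM in Bull2. Both are named with their values already seen, and their limma p-values were 0.0165 and 0.0743 unadjusted and 0.825 adjusted. They had 77 and 20 reads over the libraries. Of the 9 genes tested, TESK1 was higher and 1 gene other than ACTN1 was lower in Bull1 at an unadjusted p-value under 0.05. Of all 19339 genes tested, 1017 passed this threshold in either direction, and 1.71% passed it with a higher level in Bull1. Summed over the 11 genes, the level was 129.1 to 212.6 FPKM in Bull1 and 174.9 to 195.7 FPKM in Bull2, so the bulls overlapped where ACTB did not. The sums of the 10 housekeeping genes did not overlap, at 430.2 to 835.6 FPKM in Bull1 and 175.4 to 384.8 FPKM in Bull2. RPS2 alone held 227.8 to 550.7 FPKM of these sums in Bull1 and 51.2 to 227.5 FPKM in Bull2. Of the 10 genes, 6 were at 0 in at least 1 library, and 6 of the 9 tested had a log2FC above 0. Among all genes tested, 3.3% had all libraries of Bull1 above all those of Bull2.

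**Figure D3:**
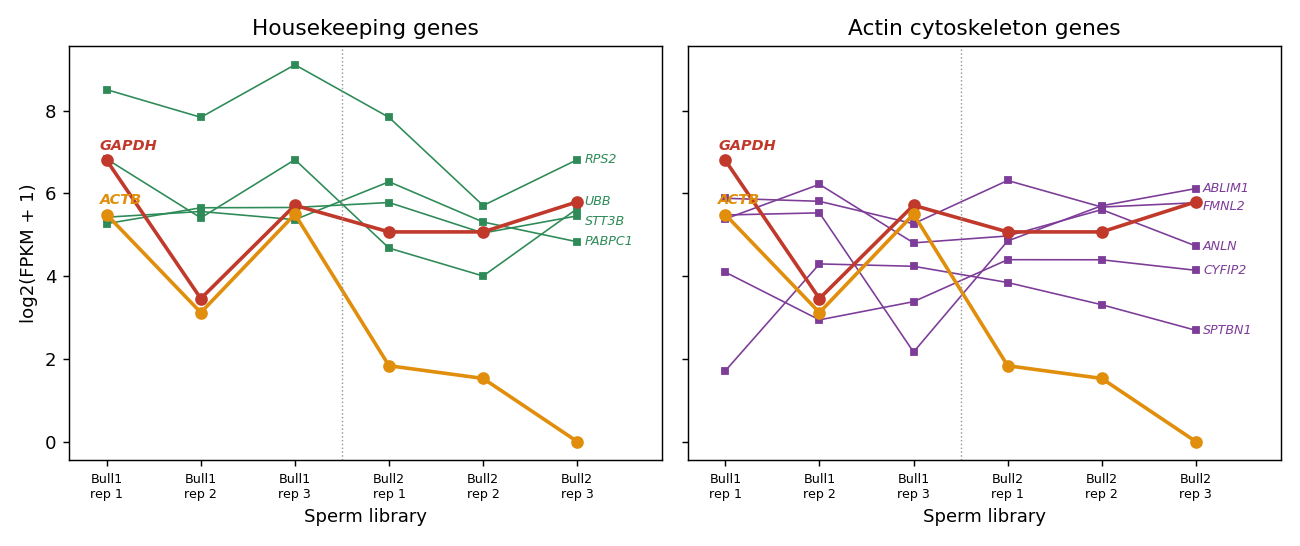
The panels show log2(FPKM + 1) by library for GAPDH (red) and ACTB (orange) beside the housekeeping genes (green) and the actin cytoskeleton genes (purple) that were above 0 in all 6 libraries, where lines only join the values of a gene. STT3B, PABPC1 and FMNL2 have CVs of 18.8%, 36.9% and 24.1%, while GAPDH is low in replicate 2 of Bull1 and ACTB is low in all libraries of Bull2.

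Markers of other cells were read in the same libraries, again with symbols from that source. Of 10 genes typical of somatic cells, 5 were above 0 in all 6 libraries, among them VIM, DOCK2 and FBN1, while CLDN5, of endothelium, was at 0 in 5 libraries, and DES, of muscle, in 4. Their summed level was 115.6 to 301.2 FPKM in Bull1 and 143.4 to 223.2 FPKM in Bull2. It was highest, at 301.2 FPKM, in replicate 2 of Bull1, where GAPDH and ACTB had their lowest values of that bull. In that library HLA-DMA, of antigen-presenting cells, was at 97.2 FPKM and VIM, of mesenchymal cells, at 77.8 FPKM. FBN1, of connective tissue, was there at its lowest of all libraries with 18.8 FPKM. Neither high value was particular to that library, since HLA-DMA was at 83.2 FPKM in replicate 2 of Bull2. VIM was at 72.6 FPKM in replicate 1 of Bull2. In recovered reads the list was higher in replicates 1 and 2 of Bull2, with 584 and 511 reads, than in replicate 2 of Bull1, with 493. The markers named beside FBN1 and SPATA16 were picked with their values known. Of 4 germ cell genes only SPATA16, which is needed to form the acrosome, was above 0 in every library, and their summed level was 133.9 to 177.5 FPKM in Bull1 and 91.9 to 105.3 FPKM in Bull2. These genes include HSPA1L, without which the sums were 96.6 to 131.7 FPKM and 73.1 to 105.3 FPKM and overlapped, an alternative chosen after seeing the data. The median log2FC was 1.24 for the germ cell genes, with 3 of 4 above 0, and -0.44 for the somatic cell genes, with 4 of 9 above 0. That of all genes tested was -0.29. SPATA16 was the germ cell gene below 0, with a log2FC of -0.55. No gene of either list had an adjusted p-value under 0.05 in the limma test. The part of other cells in the levels of GAPDH and ACTB was not tested.

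A reference gene sets the scale of a library, so each gene was read as such a scale, as its FPKM + 1 divided by its geometric mean over the 6 libraries. GAPDH gave 2.79, 0.276 and 1.32 for Bull1 and 0.842, 0.842 and 1.39 for Bull2. ACTB gave 5.96, 1.16 and 6.004 for Bull1 and 0.474, 0.383 and 0.133 for Bull2. GAPDH thus placed the libraries up to 10.1-fold apart. For ACTB the lowest of these values was set by the added 1, since the gene was at 0 in that library, and the range is not given as a fold. The references deviated from their geometric means in opposite directions in replicate 2 of Bull1, where GAPDH was below and ACTB above, in replicate 3 of Bull2, where GAPDH was above and ACTB at 0, and in no other library.

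**Figure D4:**
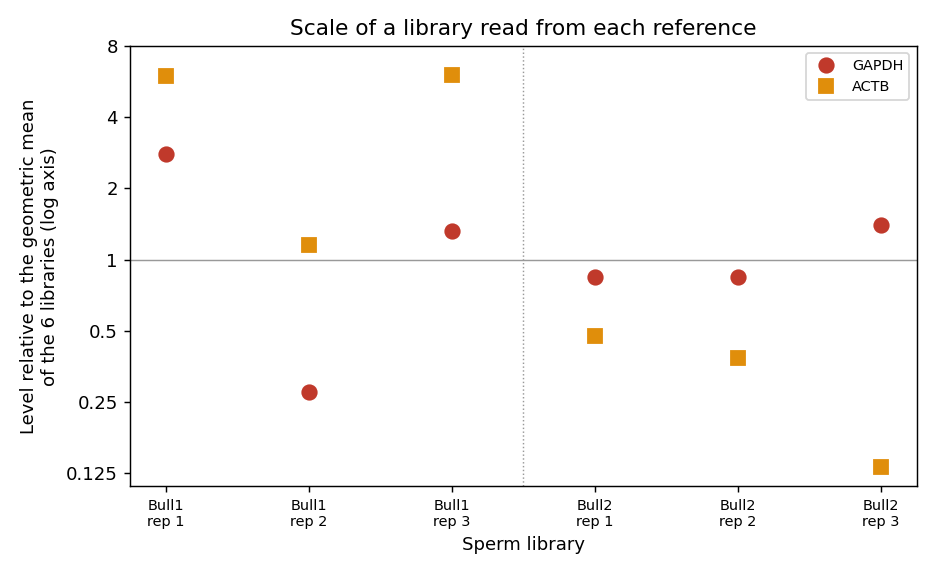
Points show, for each sperm library, GAPDH and ACTB (FPKM + 1) relative to their geometric means over the 6 libraries, on a log axis. GAPDH runs from 0.276 to 2.79 and ACTB from 0.133, where it has 0 reads and the added 1 sets the value, to 6.004.

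The references did not keep a constant ratio to each other. The log2 ratio of GAPDH to ACTB, with 1 added to both FPKM, was 1.31, 0.34 and 0.22 in the Bull1 libraries and 3.23, 3.54 and 5.79 in the Bull2 libraries. Its mean was 0.62 ± 0.60 for Bull1 and 4.19 ± 1.40 for Bull2 (SD, 3 libraries per bull), without overlap, and the difference was -3.57. An exact permutation test (two-sided) gave p = 0.1, the smallest possible, and 0.3 after Benjamini-Hochberg adjustment over the 3 ratios computed. ACTB had 0 reads in replicate 3 of Bull2, so the added 1 set the ratio of that library. The difference was -2.77 without that library and -4.94 with a pseudocount of 0.1. With a log2FC of 0.01 for GAPDH, the difference mostly repeats the log2FC of ACTB, 3.58, and is not a separate result. In replicate 2 of Bull1, the lowest library of that bull for both genes, the ratio lay within the range of that bull.

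The difference of HSPA1L between the bulls took opposite signs on the 2 references, since its log2FC lay between those of GAPDH and ACTB. HSPA1L (ENSBTAG00000025442) had 92, 3 and 91 reads in Bull1 and 28, 13 and 0 in Bull2. Without a reference its log2FC was 1.95 (SE 1.57, limma adjusted p = 0.825), and it was 0.66 without replicate 3 of Bull2 and 3.35 without replicate 2 of Bull1. Relative to GAPDH, as in the quantitative PCR of the study, its log2 ratio was -0.81, -1.75 and 0.16 in Bull1 and -0.76, -1.66 and -5.79 in Bull2. The means differed by 1.94, higher in Bull1 (two-sided exact permutation p = 0.5, adjusted p = 0.5). The bulls overlapped, and replicate 3 of Bull2, with 0 reads of HSPA1L, carried most of the difference, which was 0.41 without that library.

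Relative to ACTB the log2 ratio of HSPA1L was 0.50, -1.41 and 0.37 in Bull1 and 2.48, 1.88 and 0 in Bull2. The means differed by -1.63, lower in Bull1 (two-sided exact permutation p = 0.3, adjusted p = 0.45). It was between -2.36 and -1.02 with each library left out in turn. In replicate 3 of Bull2 both genes were at 0, so the ratio of that library holds no information beyond the added 1. The bulls overlapped for both ratios of HSPA1L, and neither difference passed its test. On this scale each difference is the log2FC of HSPA1L less that of the reference. The opposite signs thus repeat the log2FC of 1.95 for HSPA1L, 0.01 for GAPDH and 3.58 for ACTB, and are not a separate result.

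**Figure D5:**
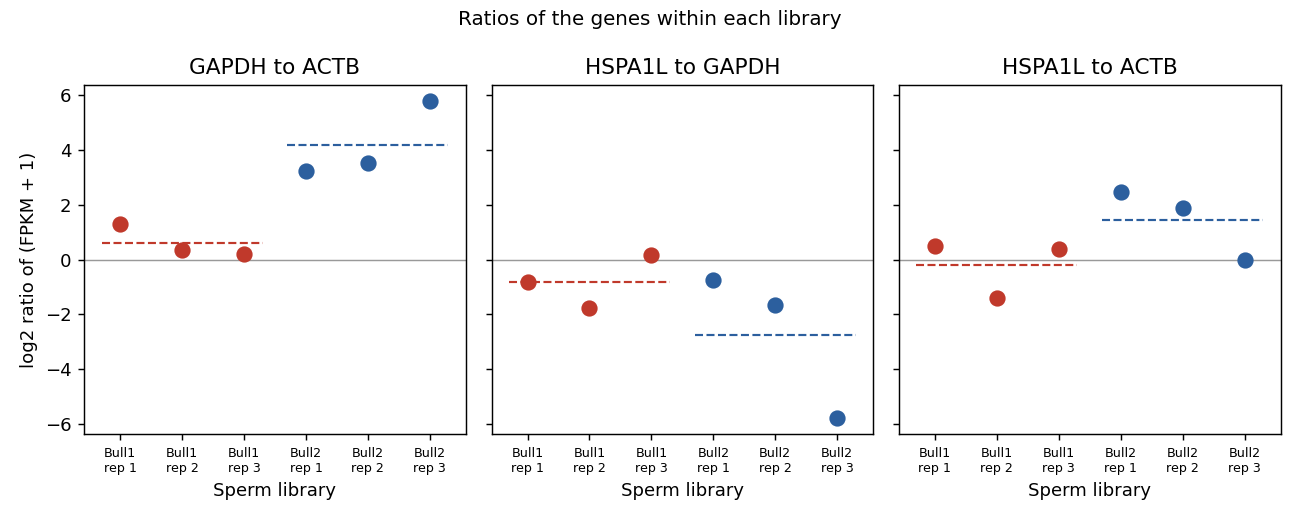
The panels show the log2 ratio of (FPKM + 1) of GAPDH to ACTB, HSPA1L to GAPDH and HSPA1L to ACTB in each library of Bull1 (red) and Bull2 (blue), with dashed lines for the bull means. HSPA1L is on average 1.94 higher in Bull1 relative to GAPDH and 1.63 lower in Bull1 relative to ACTB.

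Genes with the pattern most like that of each reference were sought by Pearson's r of log2(FPKM + 1) over the 6 libraries among the 7584 genes above 0 in all of them. For GAPDH these were ENSBTAG00000017160, with r = 0.991, and ENSBTAG00000015242, with r = 0.989. ENSBTAG00000015242 was at 115.0, 13.4 and 63.5 FPKM in Bull1 and 43.7, 49.2 and 58.9 FPKM in Bull2, close to the levels of GAPDH. ENSBTAG00000017160 had only 1 read in replicate 2 of Bull1. For ACTB they were ENSBTAG00000002242, with r = 0.990, and ENSBTAG00000005634, with r = 0.980. ACTB was itself at 0 in 1 library, and other genes with a 0 could not be found by this search. ENSBTAG00000002242 was at 119.2, 66.0 and 118.1 FPKM in Bull1 and 56.7, 41.9 and 33.9 FPKM in Bull2. An r over 0.9 was reached by 76 genes with GAPDH and by 75 with ACTB. All genes share the same 6 libraries and their depth, and such values are a description only. No symbol was paired with these 4 identifiers here.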

How the data were processed

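Sperm RNA of Bull1 and Bull2 was measured in 3 libraries each. The authors mapped reads to UMD3.1 with TopHat 2.0.12, counted them per gene with HTSeq 0.6.0 and deposited FPKM for each replicate; they pooled replicates only for their own tests. Here, libraries were grouped by their labels, with 0 columns unassigned. Whole reads were recovered from the steps of FPKM, as library totals and gene lengths for which values become whole within 0.001; a common factor of reads and length gives too few reads. The recovery and the test were tested on simulated data. Limma 3.58.1 in R 4.3.3 was run with trended variances and Benjamini-Hochberg adjustment on log2(FPKM + 1), which understates changes of low genes. Python 3.11.15 with scipy 1.17.1 gave the exact tests. Alternatives were the pseudocount, the filter, scaling, the variance trend, voom on genes with at least 30 reads, the replicate block and leaving out libraries.

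The genes and lists were chosen with earlier results of these data known. The rule named GAPDH, ACTB, HSPA1L, the highest and lowest member of each list, and the 2 most alike genes, and STT3B, PABPC1, UBB, TESK1, ACTN1, VIM, DOCK2, HLA-DMA, CLDN5 and DES were added after their values were seen. Symbols of the other genes came from the study's supplementary gene list, since 0 identifiers matched the RefSeq table of ARS-UCD2.0. For GAPDH and ACTB the pairing of identifier and symbol was taken as given by the rule, and it could not be checked in the sources used here. The list of 17 glycolysis genes therefore matched none and was not analysed here. The lowest somatic cell gene was COL6A1 with 0.91 FPKM and the highest was FBN1 with 38.8 FPKM. For germ cells these were TEX29 with 6.43 FPKM and SPATA16 with 78.9 FPKM.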

Additional observations from a re-analysis of the deposited data

How the results depend on the processing

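The difference of GAPDH between the bulls, a log2FC of 0.01, had no settled sign. It was -0.0081 with a pseudocount of 0.1 and -0.0168 after rescaling to 1000000 per library, and from -0.73 to 0.94 with each library left out in turn, with -0.18 without replicate 3 of Bull1 and -0.11 without replicate 1 or replicate 2 of Bull2. None of its limma adjusted p-values was under 0.742. The log2FC of ACTB was from 3.02 to 4.37 with each library left out and from 3.58 to 4.94 otherwise, with limma adjusted p-values of 0.506 to 0.913. The filter, the variance trend and the replicate block cannot change a log2FC in this balanced design, only its p-value. Over all genes the limma count at an adjusted p-value under 0.05 was 0, against 7 with voom, 2 after quantile normalization, 1 with the replicate block and 19, 29 and 7 without replicates 1, 2 and 3 of Bull1; GAPDH and ACTB were not called in any of these fits.

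The SD of log2(FPKM + 1) of GAPDH over the libraries, 1.11, was 0.71 without replicate 2 of Bull1 and up to 1.23 without another library. That of ACTB, 2.23, was 3.30 with a pseudocount of 0.1, because a library at 0 falls further below the others on that scale. Places by the median FPKM were 3632 for GAPDH and 11550 for ACTB.

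Libraries with the same replicate number were not paired, since the deviations from the bull means correlated at -0.0084, 0.034 and 0.023. The replicate block left the log2FC unchanged by design, at 0.01 for GAPDH and 3.58 for ACTB (limma adjusted p = 0.839 for ACTB). The exact sign-flip test of the paired ratio of GAPDH to ACTB gave p = 0.25, its smallest value. The differences of the 3 ratios kept their signs in all 4 alternatives, of which the block could not change them, and with each library left out. With as few as 0 to 8 reads of ACTB in 4 of the libraries, differences between those libraries are limited by depth.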
